A study of Mus musculus with 14 samples.

Results

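The genes described here build and run the machinery of cell division: mitotic kinases, the spindle checkpoint and kinetochore, kinesin motors, spindle assembly factors, cytokinesis proteins, condensin and other proteins of chromosome structure, and regulators of chromatid separation. The list holds 43 genes, of 12393 genes that have a probe set with 1 gene symbol on the array. For 42 of them such a probe set was found, and the brightest over the 14 arrays stands for the gene. Of these, 35 were bright enough to be tested and 7 were not; Espl1, the protease separase, had no such probe set and enters the promoter counts alone.

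The study followed mouse liver after partial hepatectomy, an operation that removes part of the liver and after which the remaining lobes regrow. Its 7 groups of 2 arrays are normal mouse liver and liver 4, 8, 12, 36, 48 and 72 h after the operation. Each extraction combined the livers of 4 to 6 mice, so an array averages over animals. The labels give no strain, sex, age or extent of resection; the controls are normal livers with no mention of a sham operation, and nothing says that the replicates of a time were separate pools; the p-values may therefore reflect technical spread alone.

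In a dividing cell the kinases Plk1, Aurka and Aurkb drive spindle assembly, the kinetochore ties each chromosome to microtubules, and the checkpoint kinases and Mad2l1 hold back chromatid separation until every chromosome is attached. Condensin and Top2a compact and untangle the chromosomes, and Anln, Ect2, Racgap1 and Kif23 divide the cell in the end. Hepatocytes of the resting liver seldom divide, and after hepatectomy they enter the cell cycle in a partly synchronous wave, S phase before mitosis. Many of these genes are repressed in resting cells and induced late in the cycle through the cell cycle homology region (CHR), a promoter element with the core TTTGAA that DREAM and B-MYB-MuvB complexes bind, often near CCAAT boxes bound by NF-Y.

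Because the genes moved together in time, their promoters are shown first. RefSeq windows of build GRCm38.p6, from 250 bases before to 50 bases after the annotated start, were at hand for 37 of the 43 genes (40 windows; Aurkb, Incenp, Kif20a, Smc4, Stmn1 and Tpx2 had none). The letters TTTGAA stood in 26 of the 40 windows (65%) on either strand, against 12.8% of 12528 windows of the other genes of the array and 17.9% of all 32851 windows. CCAAT stood in 30 (75%), against 37.0% of the other genes' windows and 37.4% of all. Both stood in 24 windows (60%), against 4.83% and 6.95%. GGCGGGA, an E2F type motif, stood in 10 (25%), against 17.4% and 11.3%. A match is a description of letters and not of binding.

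The copy of TTTGAA nearest to the annotated start lay within 60 bases of it in 23 of the 26 windows. It is printed here with its flanks for genes of several roles, with the core in capitals (TTCAAA is the same core on the other strand). The positions are Plk1 chr7:122159445-122159484 (+), Aurka chr2:172370521-172370558 (-), Cenpa chr5:30666882-30666927 (+), Cenpf chr1:189688059-189688104 (-), Hmmr chr11:40733404-40733449 (-), Kif23 chr9:61946772-61946817 (-), Racgap1 chr15:99651626-99651671 (-) and Top2a chr11:99024187-99024232 (-).
Plk1: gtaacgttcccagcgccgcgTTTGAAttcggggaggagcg
Aurka: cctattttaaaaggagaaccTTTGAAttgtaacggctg
Cenpa: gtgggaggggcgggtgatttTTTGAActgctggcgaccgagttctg
Cenpf: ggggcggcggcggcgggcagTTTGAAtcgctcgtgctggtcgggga
Hmmr: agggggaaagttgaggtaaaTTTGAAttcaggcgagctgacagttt
Kif23: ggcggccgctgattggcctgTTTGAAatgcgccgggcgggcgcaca
Racgap1: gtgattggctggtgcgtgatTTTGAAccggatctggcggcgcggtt
Top2a: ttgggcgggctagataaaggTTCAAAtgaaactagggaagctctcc

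Whole windows of 3 genes show how the motifs can be arranged, with the core TTTGAA, the CCAAT box and the E2F type motif in capitals, on whichever strand each lies. That of Hmmr, chr11:40733388-40733687 (-), holds 5 CCAAT boxes before the core. That of Plk1, chr7:122159185-122159484 (+), holds 1. That of Birc5, chr11:117848987-117849286 (+), holds neither TTTGAA nor CCAAT.
Hmmr: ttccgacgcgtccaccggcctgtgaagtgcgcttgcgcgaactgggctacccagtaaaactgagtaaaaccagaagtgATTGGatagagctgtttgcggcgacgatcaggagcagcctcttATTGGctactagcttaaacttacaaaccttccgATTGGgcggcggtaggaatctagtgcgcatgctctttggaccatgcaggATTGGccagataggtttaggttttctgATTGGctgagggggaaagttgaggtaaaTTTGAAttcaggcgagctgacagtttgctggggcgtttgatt
Plk1: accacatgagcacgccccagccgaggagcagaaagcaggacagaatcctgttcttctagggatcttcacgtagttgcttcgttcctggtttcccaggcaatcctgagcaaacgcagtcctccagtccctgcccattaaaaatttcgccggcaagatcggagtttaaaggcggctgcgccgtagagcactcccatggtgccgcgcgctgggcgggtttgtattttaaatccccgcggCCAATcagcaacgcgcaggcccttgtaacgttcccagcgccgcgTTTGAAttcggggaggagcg
Birc5: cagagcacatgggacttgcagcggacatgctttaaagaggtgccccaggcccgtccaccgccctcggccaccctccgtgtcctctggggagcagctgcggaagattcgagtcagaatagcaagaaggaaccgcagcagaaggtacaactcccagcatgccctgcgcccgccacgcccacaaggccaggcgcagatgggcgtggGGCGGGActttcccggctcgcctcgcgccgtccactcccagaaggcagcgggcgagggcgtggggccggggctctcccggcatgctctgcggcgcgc

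The values are intensities on a linear scale. Array medians lay between 127.8 and 233.1, with 2 arrays a group limiting the precision, and background (95th percentile over 27 probe sets for bacterial genes) lay between 43.6 and 138 by array. Replicate 2 of normal liver had the lowest median, and 27 of the 35 tested genes were lower in it than in replicate 1, against 62.1% of the 13576 probe sets tested. For the control gene pyruvate carboxylase, the 5′ signal was 0.0909 to 0.137 of the 3′ signal on 4 arrays, which are replicate 2 at 8, 12, 36 and 72 h, against 0.305 to 0.584 on the other 10. Log2 differences are of intensity + 57, each with its standard error (SE) from a limma fit, and a gene passed at an adjusted p under 0.05 over all probe sets. Where no array of one side was above background, a lower bound of the fold is given as "at least". In whole tissue, more dividing cells and more RNA per dividing cell cannot be told apart.

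None of the 35 tested division genes passed as higher by 12 h, and Cenpa and Pttg1 passed as lower by then. Some passed as higher at 36 h and most at 48 h. At 36 h 17 of the 35 tested genes had risen and 1 had fallen, at 48 h 32 had risen and none had fallen, and at 72 h 30 had risen and none had fallen. Of all 13576 probe sets tested, 2.28% rose at 36 h, 1.64% at 48 h and 1.62% at 72 h. In the same order 1.89%, 0.685% and 0.869% fell, and 4.17%, 2.32% and 2.49% passed in either direction. The median log2 difference from normal liver was 1.33 at 36 h, 2.43 at 48 h and 2.03 at 72 h. Over all probe sets it was 0.07, 0.12 and 0.11. Genes that did not pass at 36 h were not all level then. The 36 h difference was positive in 33 of the 35, and 29 had an unadjusted limma p under 0.05 in either direction. Both 36 h arrays lay above both normal arrays in 30 genes, as in 26.7% of all probe sets.

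**Figure D1:**
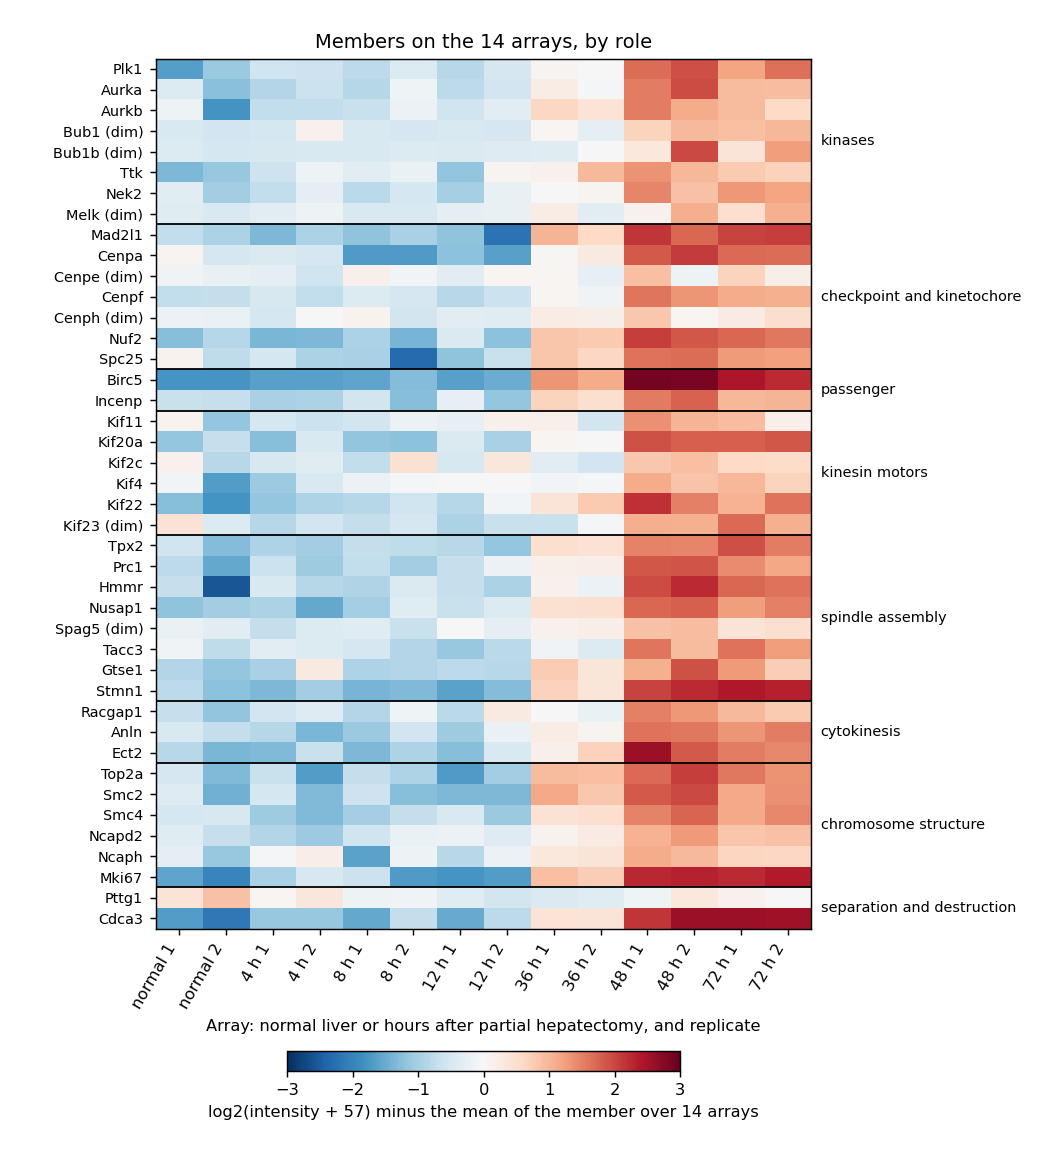
Each row is 1 of the 42 genes with a probe set, grouped by role, and each column is 1 of the 14 arrays. Colour gives log2(intensity + 57) minus the mean of that gene over the arrays; genes marked dim were not tested. The 48 and 72 h columns are red in nearly all rows, while Pttg1 has its highest mean in normal liver.

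Of the 35 genes, 22 passed the brightness filter only through their late arrays and so had to differ. The other 13 passed it on the mean of the normal and early arrays alone: Plk1, Aurka, Kif2c, Kif4, Kif22, Cenpf, Hmmr, Racgap1, Stmn1, Smc4, Ncaph, Pttg1 and Spc25. Among these 13, 3 rose and 1 fell at 36 h, 10 rose at 48 h and 9 rose at 72 h. With no filter, 32 of 42 genes rose at 48 h and 29 at 72 h. Without replicate 2 of normal liver 7 of 35 passed at 36 h and 18 at 72 h, without the 36 h replicate 1 or 2 there were 8 and 5 at 36 h, and without the 72 h replicate 2 there were 19 at 72 h. Without the 4 arrays of low 5′ signal 3, 28 and 12 passed at 36, 48 and 72 h; with that split as a term there were 16, 32 and 28.

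**Figure D2:**
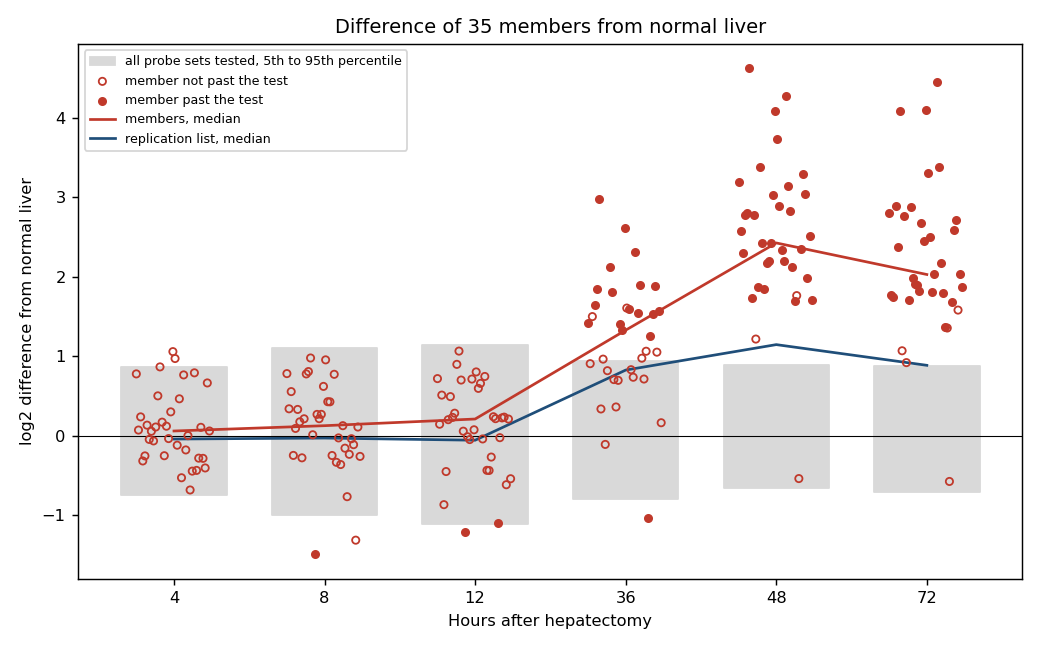
Log2 differences from normal liver (y axis) at 4 to 72 h after hepatectomy (x axis, times evenly spaced as categories). Red points are the 35 tested genes, filled where they passed the test; grey boxes span the 5th to 95th percentile of all probe sets tested; lines join the medians of the division genes (2.43 at 48 h) and of a DNA replication list (1.15 at 48 h).

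The late arrays as a whole (36, 48 and 72 h, 6 arrays) were set against the early arrays (4, 8 and 12 h, 6 arrays). In this comparison 33 of the 35 genes rose and none fell, with a median log2 difference of 1.94, from 0.05 for Pttg1 to 3.68 for Birc5. Of all probe sets 9.92% rose, 5.96% fell and 15.9% passed in either direction. In 29 of the 35 genes every late array lay above every early array, which held for 4.76% of all probe sets. In 28 they lay above every normal array as well (2.25%). Kif2c (0.53, SE 0.23, adjusted p = 0.154) and Pttg1 did not pass. By the moderated F test over the 6 times 32 of 35 passed, against 13.1% of all probe sets. Among the 13 genes that passed the filter without the late arrays 11 rose, with a median of 1.57; for the other 22 the filter used the late arrays themselves. With no filter 37 of 42 genes rose in the late arrays.

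Among the mitotic kinases, Plk1, which governs entry into and passage through mitosis, stood at 48.1 and 93.7 in normal liver. Its early values ran from 128 to 189; it then reached 292 and 268 at 36 h, 997 and 1193 at 48 h, and 695 and 977 at 72 h. No late array overlapped the earlier ones. Plk1 rose by 1.42 at 36 h (SE 0.26, adjusted p = 0.00944) and by 3.19 at 48 h (SE 0.26, adjusted p = 2.60e-05). Aurka, which matures centrosomes and the spindle poles, read 224 and 99.7 in normal liver, 377 and 299 at 36 h, 1027 and 1381 at 48 h, and 666 and 656 at 72 h. It rose at 48 h (2.57, SE 0.32, adjusted p = 0.000674) but did not pass at 36 h (0.91, SE 0.32, adjusted p = 0.143).

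Aurkb, the kinase of the chromosomal passenger complex, read 155 and 11.1 in normal liver, a wide spread, then 307 and 259 at 36 h and 625 and 457 at 48 h (2.30, SE 0.41, adjusted p = 0.0107). Ttk, a checkpoint kinase, was not above background in normal liver (7.7 and 17.8) and read 124 and 269.9 at 36 h and 367 and 271 at 48 h, at least 5.61-fold higher (adjusted p = 0.00466). Nek2, which helps to separate centrosomes, went from 112 and 44.6 to 522 and 328 at 48 h and 457 and 416 at 72 h (1.91 at 72 h, SE 0.33, adjusted p = 0.00812). All 5 tested kinases rose at 48 and 72 h, and 2 of them at 36 h. Of the 5, only Plk1 and Aurka passed the brightness filter without their late arrays. The Aurkb call at 72 h was kept in 6 of 25 alternative settings. Bub1, Bub1b and Melk were too dim to be tested. Bub1b read 24.4 to 32.5 on the 8 normal and early arrays, and then 34.6, 61.8, 88.3, 406, 96.8 and 221 on the late ones, with the 48 h replicates 88.3 and 406 far apart.

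Birc5 and Incenp, partners of Aurkb in the passenger complex, passed at 36 h, while Aurkb did not (1.499, SE 0.41, adjusted p = 0.0643). Birc5 (survivin), which targets the complex to chromosomes, read 8.7 and 8.3 in normal liver and 14.7 to 33.8 at the early times, below background on all 8 arrays. It then reached 498 and 423 at 36 h, 1573 and 1546 at 48 h, and 1129 and 988 at 72 h. That is at least 8.17-fold above normal liver at 36 h (adjusted p = 1.67e-05), 27.7-fold at 48 h (adjusted p = 3.93e-07) and 18.8-fold at 72 h (adjusted p = 1.69e-06). Incenp, the scaffold of the complex, went from 51.9 and 50.7 to 219.5 and 185 at 36 h (1.26, SE 0.30, adjusted p = 0.0392) and 454 and 534 at 48 h. Its 36 h call was kept in 11 of 25 alternative settings and its 48 h call in 25 of 25.

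**Figure D3:**
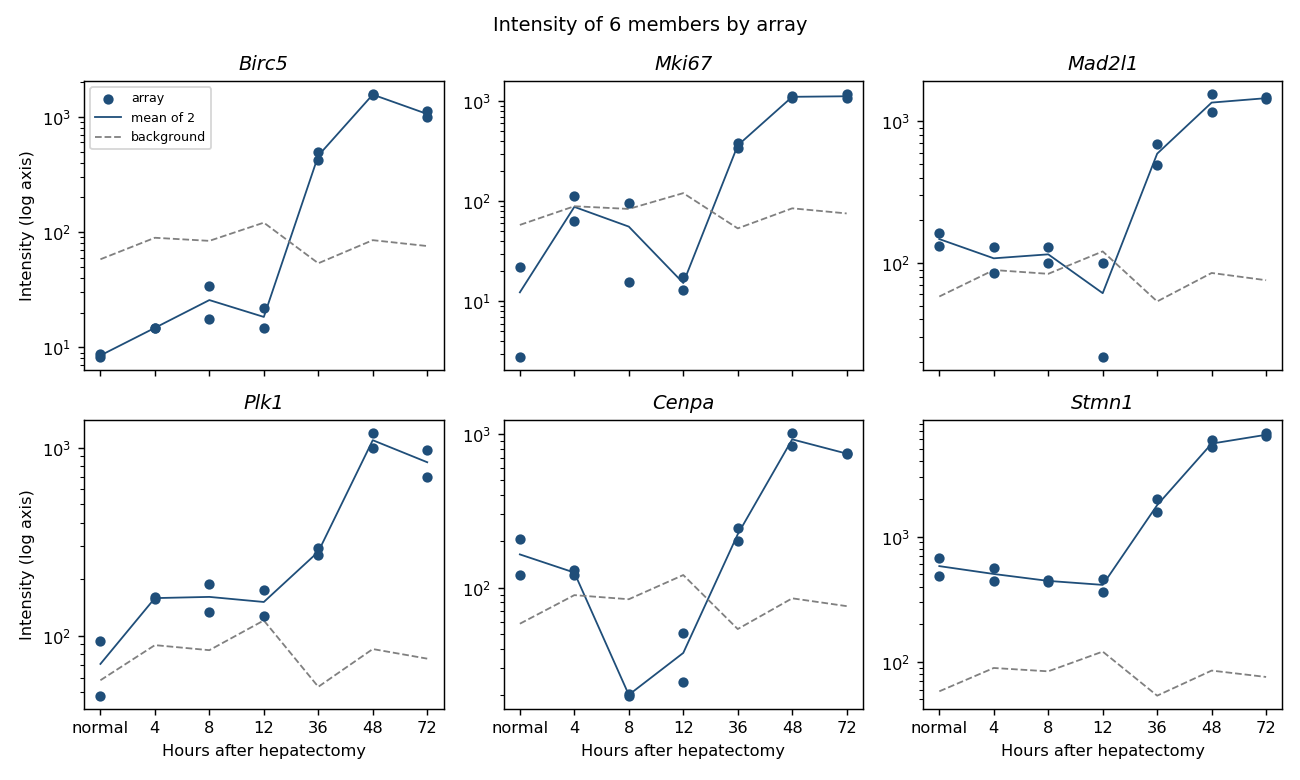
Intensity on a log axis against time (normal liver, then hours after hepatectomy as categories) for 6 genes. Points are arrays, the solid line joins the means of 2 arrays and the dashed line is the mean background of the 2 arrays. Birc5 and Mki67 climb from below background in normal liver to 988 or more on each 48 and 72 h array, Cenpa dips to 19.7 and 20.2 at 8 h before its rise, and Stmn1 and Mad2l1 are no lower on average at 72 h than at 48 h.

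At the kinetochore, Mad2l1, the checkpoint protein MAD2, read 163 and 132 in normal liver, 686 and 493 at 36 h, 1547 and 1152 at 48 h, and 1418 and 1481 at 72 h. It rose at all 3 late times (1.65 at 36 h, adjusted p = 0.0127; 2.77 at 48 h, adjusted p = 0.000429; 2.89 at 72 h, adjusted p = 0.000354; SE 0.32 each). Nuf2, part of the microtubule-binding NDC80 complex, was below background on every normal and early array and was at least 4.59-fold higher at 36 h (adjusted p = 0.00326) and 11.6-fold at 48 h (adjusted p = 7.72e-05). Spc25, of the same complex, went from 388 and 188 to 1229.9 and 1274 at 48 h (1.99, SE 0.40, adjusted p = 0.0209). Cenpf, a kinetochore protein of late cycle cells, was level at 116 to 177 on the normal and early arrays and read 892 and 725 at 48 h (2.20, SE 0.21, adjusted p = 8.45e-05). Cenpe, a kinetochore motor, and Cenph stayed dim, with at most 2 of their 6 late arrays above background.

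Cenpa, the histone H3 variant that marks centromeres, fell before it rose. It read 209 and 121 in normal liver and 130 and 120.5 at 4 h, fell to 19.7 and 20.2 at 8 h and was 50.8 and 24.1 at 12 h. It reached 201 and 244 at 36 h, 837 and 1018 at 48 h, and 753 and 744 at 72 h. At 8 h it was at least 1.90-fold lower than in normal liver (adjusted p = 0.00288) and at 12 h at least 1.33-fold lower (adjusted p = 0.00834), since both times were below background. At 36 h it was back at the normal range (0.36, SE 0.25, adjusted p = 0.498), and at 48 h it had risen by 2.17 (SE 0.25, adjusted p = 0.000368). The 8 h fall is the only call among the 35 genes at that time, when 4.72% of all probe sets fell, and it was lost without the 4 arrays of low 5′ signal.

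Among the kinesin motors 4 of 5 tested rose at 48 h, 3 at 72 h and 1 at 36 h. Kif22, which pushes chromosome arms toward the spindle equator, went from 108 and 58.5 in normal liver to 465 and 636 at 36 h and 1774 and 1078 at 48 h (3.38, SE 0.34, adjusted p = 0.000133). Kif20a, a motor of cytokinesis, was below background on all normal and early arrays, read 101 and 95.1 at 36 h, and then 515 and 465 at 48 h and 470.1 and 493 at 72 h, at least 8.70-fold above normal (adjusted p = 0.000177) at 48 h. Kif11, the motor that separates spindle poles, passed at 48 h alone of the 6 times (1.73, SE 0.40, adjusted p = 0.0467), from 156 and 31.9 to 456 and 349, and that call was kept in 7 of 25 alternative settings. Kif4 read 242 and 42.5 in normal liver and 636 and 518 at 48 h (1.87, SE 0.40, adjusted p = 0.0316), and its 72 h call was kept in 7 of 26 alternative settings. Kif2c, a microtubule depolymerase, went from 308 and 129.9 to 530.2 and 570.3 and did not pass (1.22, SE 0.40, adjusted p = 0.181). Its brightest probe set read 143 to 400.0 on the early arrays, while 2 of its 3 other probe sets rose in the late arrays (1.39, SE 0.20, and 1.73, SE 0.20). Kif23, a motor of the central spindle, was too dim to be tested; it read 145 and 55.6 in normal liver, 21.2 to 49.5 on the early arrays and 263, 257, 429 and 260.3 at 48 and 72 h.

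All 7 tested spindle assembly genes rose at 48 and 72 h, and 5 of them at 36 h. Of the 7, only Hmmr and Stmn1 passed the brightness filter without their late arrays. Stmn1, a regulator of microtubule growth, rose from 679.9 and 485 in normal liver to 2003 and 1579 at 36 h, 5176 and 5936 at 48 h, and 6732 and 6345 at 72 h. Both 72 h arrays lay above both 48 h arrays, and its log2 difference was 3.38 at 72 h (SE 0.24, adjusted p = 9.34e-06). Hmmr, a spindle and hyaluronan-binding protein, read 184 and 8.2 in normal liver and 1453 and 1779 at 48 h (3.73, SE 0.46, adjusted p = 0.000669). Prc1, which bundles the central spindle, went from 129 and 53.2 to 1104 and 1128 at 48 h (3.03, SE 0.29, adjusted p = 8.45e-05).

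Tpx2, the activator of Aurka on the spindle, read 76.5 and 24.4 in normal liver, 511 and 495 at 48 h, and 708 and 528 at 72 h (2.68 at 72 h, SE 0.26, adjusted p = 0.000116). Nusap1, a microtubule-bundling protein, rose by 1.59 at 36 h (SE 0.27, adjusted p = 0.0064) and by 2.89 at 48 h (SE 0.27, adjusted p = 8.21e-05). Gtse1, a microtubule-associated protein, was below background in normal liver and at least 6.45-fold higher at 48 h (adjusted p = 0.00396), with 257 and 512 on the arrays; its 36 h call was kept in 9 of 25 alternative settings. Tacc3, a partner of Aurka, read 82.6 and 56.0 at 36 h, inside the normal range of 84.3 and 32.2, and then 401 and 236 at 48 h (1.71, SE 0.30, adjusted p = 0.00931). Spag5 (astrin) was too dim to be tested, at 24.5 to 75.1 on the early arrays and 189.5 and 196 at 48 h.

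The 3 cytokinesis genes all rose at 48 and 72 h, and Ect2 at 36 h as well. Of the 3, only Racgap1 passed the brightness filter without its late arrays. Ect2, the activator of RhoA at the cleavage plane, was below background on all normal and early arrays and reached 119.8 and 201 at 36 h and 879 and 508 at 48 h. It was at least 2.76-fold higher at 36 h (adjusted p = 0.0375) and 11.9-fold at 48 h (adjusted p = 0.000329). The 36 h call was kept in 11 of 25 alternative settings and the 48 h call in 25 of 25. Anln, an actin-binding scaffold of the cleavage furrow, was likewise below background before 36 h, read 131 and 114 then and 446 and 429 at 48 h, at least 7.78-fold above normal (adjusted p = 0.00182). Racgap1, the partner of Kif23 in the centralspindlin complex, went from 154 and 92.9 to 909.8 and 783 at 48 h (2.34, SE 0.35, adjusted p = 0.00293); a 12 h array at 350.1 overlapped its 36 h values of 284 and 237.

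Of 6 genes of chromosome structure, 3 rose at 36 h, 5 at 48 h and 5 at 72 h. Mki67, the protein Ki-67 that coats mitotic chromosomes, read 21.8 and 2.8 in normal liver, 385 and 339 at 36 h, 1088 and 1129 at 48 h, and 1066 and 1178 at 72 h. This was at least 6.43-fold above normal at 36 h (adjusted p = 0.000931) and 19.7-fold at 48 h (adjusted p = 1.65e-05). Top2a, which decatenates sister chromatids, went from 119.6 and 44.5 to 433 and 412 at 36 h (1.84, SE 0.36, adjusted p = 0.0138) and 766 and 1003 at 48 h. Its other probe set was dim, with a mean of 14.96 over the 14 arrays, and was not tested. Smc2, a core subunit of condensin, read 75.4 and 7.1 in normal liver and 325 and 249 at 36 h (1.89, SE 0.36, adjusted p = 0.0124), and 567 and 628 at 48 h. Its partner Smc4 went from 246 and 256 to 536 and 559.9 at 36 h, just short of the threshold (0.97, SE 0.26, adjusted p = 0.0544), and to 1168 and 1401 at 48 h (2.12, SE 0.26, adjusted p = 0.000625). The regulatory subunit Ncapd2 rose at 48 h (1.70, SE 0.23, adjusted p = 0.00143). Ncaph, the subunit that bridges Smc2 and Smc4, did not pass at 48 h (1.76, SE 0.42, adjusted p = 0.0501) but passed in late against early times (1.11, SE 0.24, adjusted p = 0.00826).

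Cdca3, which triggers mitotic entry through degradation of a CDK inhibitor kinase, read 65.6 and 31.7 in normal liver, 462 and 456 at 36 h, 1671 and 2304 at 48 h, and 2238 and 2203 at 72 h. It was at least 34.9-fold above normal at 48 h (adjusted p = 1.15e-05) and 39.5-fold at 72 h (adjusted p = 9.94e-06). Pttg1 (securin), the inhibitor of separase that is destroyed at anaphase, ran against the others. Its brightest probe set read 5239.6 and 7443 in normal liver, 3076 and 2713 at 12 h, 2949.9 and 3096 at 36 h, and 3676 and 4969 at 48 h. It fell at 12 h (-1.10, SE 0.24, adjusted p = 0.0125) and at 36 h (-1.03, SE 0.24, adjusted p = 0.033); the 36 h call was kept in 14 of 26 alternative settings. Its next probe set did not pass in late against early times (0.14, SE 0.18, adjusted p = 0.663), and the third was dim. Pttg1 is the only one of the 35 genes with its highest group mean in normal liver, which 16.9% of all probe sets had.

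Between 36 and 48 h each of the 35 tested genes was higher on both 48 h arrays than on both 36 h arrays, as were 21.6% of all probe sets. In the limma test of 48 h against 36 h, 10 passed: Plk1, Aurka, Birc5, Kif20a, Cenpa, Cenpf, Prc1, Cdca3, Stmn1 and Tacc3. Among the 13 genes that passed the filter without the late arrays 4 passed, namely Plk1, Aurka, Cenpf and Stmn1. For the others the filter used the late arrays, which include those of 48 h. Only 28 of 13576 probe sets (0.206%) rose in this step, and 11 of these belong to the 10 genes. Among the other probe sets that rose are those of Cdc20, Cdk1, Ccnb2 and Ube2c, which encode the mitotic cyclin-dependent kinase, a cyclin and components of cyclin destruction. Of the 28 probe sets, 11 belong to none of the gene lists. Some of the 11 have no single gene symbol and could not be matched to a list. Iqgap3 and D17H6S56E-5 also have probe sets among the 11. So do Ccl9, Prtn3, Hsd3b1, Slc3a1, Car3 and Slc22a7, so the step was not confined to division genes. None of the 6 genes of chromosome structure and none of the 3 cytokinesis genes passed in this step. The cytokinesis genes still rose by 1.77 (Ect2, SE 0.37, adjusted p = 0.0655), 1.51 (Racgap1, SE 0.35) and 1.46 (Anln, SE 0.31). Tacc3 and Cenpf passed with 1.54 (SE 0.299) and 1.504 (SE 0.21). In chromosome structure the step ran from 0.701 (Ncaph) to 1.48 (Mki67). A difference in step between roles was not tested, and only the 10 genes named above passed. The count is sensitive to single arrays: it was 0 without replicate 2 of either group, 2 without the 48 h replicate 1, 5 without the 36 h replicate 1, 0 with only the 4 arrays compared and 0 without the 4 arrays of low 5′ signal. It was 5 and 19 with a smaller and a larger pseudocount.

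The 36 h level relative to that at 48 h ranked the 32 genes that rose at 48 h. It was lowest for Kif20a (19.99%), Hmmr (20.2%), Tacc3 (21.8%), Ect2 (23.1%), Cdca3 (23.1%), Cenpa (24.01%) and Plk1 (25.5%). It was highest for Ttk (61.7%), Aurkb (52.4%), Spc25 (50.3%), Smc2 (48.0%) and Top2a (47.8%), and the median was 34.6%. Neighbours in this order were not tested against each other, and 2 arrays a time set the order loosely: the 36 h arrays of Ttk were 124 and 269.9. For comparison, 15 of 30 tested genes of DNA replication rose at 48 h, and their 36 h level was 54.1% to 119% of that at 48 h (median 82.4%). Of those 15, 6 were higher on both 48 h arrays than on both 36 h arrays, against 32 of the 32 division genes. The 15 had a median log2 step of 0.25, against 1.35. These sets and those that follow were picked for a rise at 48 h, so a higher 48 h level was partly fixed. Without that choice the median step was 1.30 over the 35 tested division genes and 0.18 over the 30 tested replication genes. For the 13 division genes that passed the filter without the late arrays it was 1.33. The late step was also seen in lists closer in function. In mitotic control 8 genes rose at 48 h, and 7 of them were higher on both 48 h arrays. Their median step was 1.53 and their median 36 h level 32.6%. Of 15 mitosis genes outside the list that rose at 48 h, 13 were higher on both, with medians of 0.99 and 47.4%. Mcm6, a subunit of the replicative helicase, read a mean of 1382 ± 12.6 (SD, n = 2) at 36 h and 1165 ± 52.9 (SD, n = 2) at 48 h. These lists are compared by their values only; the difference between them was not tested.

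**Figure D4:**
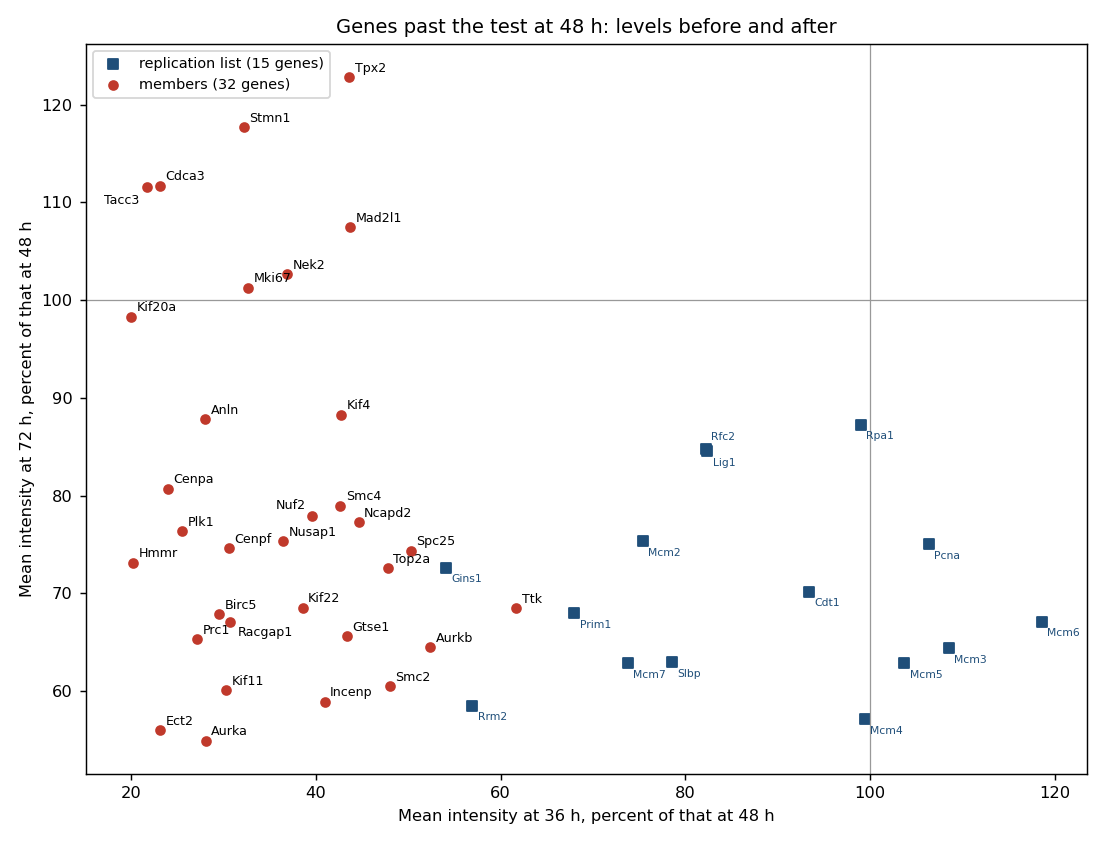
Mean intensity at 36 h (x axis) and at 72 h (y axis), each as a percent of the mean at 48 h, for genes that rose at 48 h. Red points are the 32 division genes, from 19.99% to 61.7% on the x axis, and blue squares are 15 DNA replication genes, from 54.1% to 119%; grey lines mark 100%.

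At 72 h the mean level was 54.9% (Aurka) to 123% (Tpx2) of that at 48 h, with a median of 74.9%. None of the 35 genes passed in limma for 72 h against 48 h, nor did any of the 13576 probe sets (0%); 2 of the genes had an unadjusted p under 0.05. The log2 differences ran from -0.80 to 0.26 with a median of -0.38 and a median SE of 0.32, so a fall of this size could not be told from the spread. Both 48 h arrays lay above both 72 h arrays in 23 genes (13.4% of all probe sets), and the reverse held in 2 (13.0%). The highest group mean was at 48 h in 27 genes, at 72 h in 7 (Mad2l1, Nek2, Tpx2, Mki67, Cdca3, Stmn1 and Tacc3) and in normal liver in 1. Over all probe sets it was at 48 h in 15.2% and at 72 h in 11.5%. It was at 4, 8, 12 or 36 h in none of the 35 genes, and in 8.01%, 12.9%, 22.1% and 13.4% of all probe sets. For the 22 genes that passed the filter only through their late arrays, a late highest mean was largely fixed beforehand. Of the other 13, all but Stmn1 (72 h) and Pttg1 (normal liver) had it at 48 h.

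Early after the operation few of the genes passed. At 4 h none of the 35 passed in limma (5 had an unadjusted p under 0.05), against 2.42% of probe sets in either direction (1.6% higher, 0.825% lower). The calls at 8 h (Cenpa) and at 12 h (Cenpa and Pttg1) were all falls, against 9.59% and 12.2% of probe sets in either direction. At 8 h 4.87% of probe sets rose, and at 12 h 5.98% rose and 6.22% fell. Without replicate 1 of normal liver 1, 5 and 6 of the 35 passed at 4, 8 and 12 h. Without replicate 1 of the 8 h group 2 passed at 8 h, and without replicate 1 of the 12 h group 6 passed at 12 h. Without replicate 2 of normal liver or of the 12 h group 1 passed at 12 h. The median difference was 0.06, 0.12 and 0.21 at 4, 8 and 12 h. In limma 7 of the 35 genes at 8 h and 9 at 12 h had an unadjusted p under 0.05, in either direction. For 48 h against normal liver, the test gave back 9 of 100 simulated log2 changes of 1. Small early changes could therefore have been missed.

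Further probe sets of 22 of the genes give the same measure from other sequence. Of 35 such probe sets 14 were bright enough to be tested, and in late against early times 9 rose, 5 did not pass and none fell. Of the tested ones, those of Hmmr (3 of 3), Prc1, Smc4 and Ncaph rose, while a further Smc4 probe set was too dim to be tested. Those that did not pass belong to Kif2c (1 of 3), Incenp (1 of 2), Cenpf, Cdca3 and Pttg1, so for Cenpf (-0.17, SE 0.21) and Cdca3 (-0.0036, SE 0.26) only the brightest of the tested probe sets rose. Among the 7 dim genes, Bub1b and Spag5 had every late array above every early one, and the highest mean was at 48 h in 4 and at 72 h in 3.

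Other genes of cell division give the wider frame. Of 94 further mitosis genes 45 were tested, and 4 rose at 36 h, 15 at 48 h and 13 at 72 h; in late against early times 23 rose and none fell, with a median of 0.65. Pbk, a mitotic kinase (2.15, SE 0.16), Tubb5, a beta tubulin (1.89, SE 0.15), Ckap2, a spindle-associated protein (1.84, SE 0.30), and Haus1 of the augmin complex (1.70, SE 0.13) led them. Of 14 tested genes of mitotic control, 8 rose at 36 h and at 48 h, 7 at 72 h and 9 in late against early times, with a median of 1.16. They were led by Ube2c (4.15, SE 0.17), Cdk1 (4.07, SE 0.13), Ccnb2 (3.48, SE 0.15) and Cdc20 (3.34, SE 0.16). In DNA replication 11 of 30 rose at 36 h, 15 at 48 h, 8 at 72 h (1 fell) and 25 in late against early times, with a median of 1.15.

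Of 15 tested transcription factors and MuvB, RB and NF-Y subunits that act on such promoters, 6 rose in late against early times and none fell, with a median of 0.53. E2f1 (1.43, SE 0.18) and Rbl1 (0.87, SE 0.12) led, followed by Tfdp1 (0.81, SE 0.18) and E2f6 (0.78, SE 0.19). Mybl2, which encodes B-MYB, did not pass (-0.23, SE 0.14, adjusted p = 0.327), nor did Foxm1 (0.35, SE 0.26, adjusted p = 0.437). Mybl2 was dim, with a mean of 95.75 in normal liver and 148 at 48 h. Foxm1 read 191 ± 140 (SD, n = 2) in normal liver and 519 ± 141 (SD, n = 2) at 48 h. That difference of 1.32 (SE 0.46) did not pass either (adjusted p = 0.201). At 48 h only Rbl1, the pocket protein p107, passed against normal liver (1.16, SE 0.21, adjusted p = 0.0106). Of the division genes, those with TTTGAA in the promoter window (20 tested) had log2 differences of 0.53 to 3.01 in late against early times (median 1.89), and those without it (9 tested) had 0.05 to 3.68 (median 1.71). The ranges overlapped, and no test was made between them.

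Across the 14 arrays the tested genes followed a common course. Correlated with the mean standardized profile of the others, 28 of 35 had a Pearson r over 0.9 (median 0.948), with Pttg1 (-0.10), Kif2c (0.736) and Kif4 (0.826) lowest. Outside the list, 37 of 8418 genes (0.44%) had an r over 0.9 with the mean profile. The 10 most similar were Ccna2 (0.989), Cdc20 (0.987), Ube2c (0.983), D17H6S56E-5 (0.974), Shcbp1 (0.970), Pbk (0.967), Dbf4 (0.965), Ccnb2 (0.963), Cdkn2c (0.961) and Cdk1 (0.961). These values describe 14 arrays that share the same time groups, and no p is given. For 22 of the 35 genes the filter used the late arrays, so a shared late rise was partly fixed, also in the mean profile. Among the other 13, Kif2c, Kif4, Ncaph, Spc25 and Pttg1 had an r under 0.9.

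Markers of the cell types that a liver sample can hold were read on the same arrays. The summed intensity of 9 hepatocyte markers was 251526 to 307640 in normal liver, 242566 to 337798 at the early times and 165507 to 254701 at the late times; none of the 9 passed at 48 h, and 2 of the 9 fell in late against early times. That of 12 lymphocyte markers was 1128 to 1733, 1536 to 2313 and 850.2 to 2105, with Cd2 and Cd4 above background on no array. Sums of 11 Kupffer cell markers (13739 to 15324, 5761 to 15578 and 11811 to 13933), 12 endothelial markers (5999.8 to 6798, 4436 to 6150.0 and 4911 to 5707), 12 stellate cell markers (8441 to 8736, 7476 to 9799.6 and 6958 to 8842) and 6 erythroid markers (2848 to 3823, 2883 to 3798 and 2389 to 3513) overlapped between normal and late arrays or were lower in the late ones. Cholangiocyte markers (7 genes) were higher late than in normal liver (5692 to 14647 against 3437 to 4571) and overlapped the early range of 6091 to 17955, and 9 neutrophil markers were 865.9 to 1107 in normal liver, 2249 to 2909.9 early and 1281 to 2681 late. Pancreatic acinar (10 genes) and muscle (12 genes) transcripts were highest at early times, at up to 261022 and 18350 in sum, and 1 of the 36 h arrays had an acinar sum of 41186.5. Which cells carried the division transcripts was not tested.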

How the data were processed

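Total RNA of mouse liver was hybridised to 14 one-colour arrays with biotin label, per the labels. The authors deposited 1 linear intensity for each probe set; no label names the software that computed it. The mean of each array without its lowest and highest 2 percent was 499.5 to 499.9, so the authors' arrays had been scaled to each other. The series' design text names GeneSpring 7.2 for the authors' selection of genes.

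Of 22690 probe sets, 64 controls were left out. The array annotation gave 1 symbol to 20380 of the others, several to 691 and none to 1555. Tests used log2 of the intensity plus 57, its 25th percentile, on the 13576 probe sets whose mean reached the 40th percentile, 128.8. A model of 7 groups over 14 arrays was fitted in limma 3.58.1 (R 4.3.3), with 7 residual and 5.08 prior degrees of freedom and Benjamini-Hochberg adjustment over all probe sets of a contrast. Simulated data for 48 h against normal liver gave back 9 of 100 probe sets changed by 1 and 73 of 100 changed by 2 on the log2 scale, with 4 false calls.

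All 43 listed genes were eligible to be named; of each other list, the 4 with the largest called late against early difference; and the 10 genes most like the mean profile. The members and lists were chosen with earlier results of these data known. The alternatives covered pseudocounts of 14.25 and 228, quantile normalization, filters at none and at the 60th percentile, a variance trend, array weights, replicate number or the group of 4 arrays as a term, leaving out those 4, averaging probe sets, leaving out each array, and only the groups compared.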

Additional observations from a re-analysis of the deposited data

Results flagged for a closer look

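In 10 genes the 2 late time points 36 and 48 h differed by a direct limma test of 48 h against 36 h, adjusted over all probe sets. On the log2 scale 48 h was higher by 1.77 for Plk1, 1.67 for Aurka, 1.65 for Birc5, 1.82 for Kif20a and 1.81 for Cenpa. The difference was 1.504 for Cenpf, 1.71 for Prc1, 1.97 for Cdca3, 1.61 for Stmn1 and 1.54 for Tacc3. Each was higher on both 48 h arrays than on both 36 h arrays. Only 4 of the 10 (Plk1, Aurka, Cenpf and Stmn1) passed the brightness filter without their late arrays. These calls rest on single arrays: leaving out replicate 2 of either time left 0 of the 10, and leaving out each array in turn gave 0 to 15 genes.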

How the results depend on the processing

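Counts are of genes of the list that passed. The filter at the 60th percentile left 21 of them to test, with 3 at 8 h, 19 at 48 h, 18 at 72 h, 19 in late against early times and 20 at any time. Without the 4 arrays of low 5′ signal, which leaves 1 array at 4 times, 0 passed at 8 and 12 h, 3 at 36 h, 12 at 72 h and 0 for 48 h against 36 h. With only the groups compared there were 0 at 12 h, 7 at 36 h and 0 for 48 h against 36 h. Pseudocounts of 14.25 and 228 gave 5 and 19 for 48 h against 36 h, and 228 gave 2 at 8 h. At 8 h there were also 2 under quantile normalization, 3 with the variance trend and 3 with the replicate block; at 12 h there was 1 with array weights and 1 with probe sets averaged. Quantile normalization moved the 48 h median over all probe sets from 0.12 to 0.00.

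Leaving out each array in turn gave, for the times in order from 4 to 72 h, ranges of 0 to 1, 1 to 5, 1 to 6, 5 to 19, 24 to 33 and 18 to 31, and gave 0 to 15 for 48 h against 36 h and 31 to 33 in late against early times. For 72 h against 48 h it was 0 in every setting run. Of 843 recomputed values of the 33 genes that passed in late against early times 824 passed again, as did 766 of 817 at 48 h, 682 of 766 at 72 h and 361 of 461 at 36 h; none of these changed sign.

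Arrays with the same replicate number deviated together in 9 of 21 pairs of groups (correlation over 0.1, range -0.19 to 0.53) and not in the other pairs. In 6 of 7 groups the best match had the same number, a hint from the data of a factor shared by number that the labels do not give; the 4 arrays of low 5′ signal are all replicate 2. With the replicate block 17, 32 and 28 passed at 36, 48 and 72 h, 9 for 48 h against 36 h and 33 in late against early times. With the motif window shortened to its last 150 bases, TTTGAA stood in 24 of the 40 promoters (60%) against 5.10% of the other genes' windows. Dim genes limit the precision: several normal and early values lie below background.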
